A study of Mus musculus with 12 samples.

Results

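A set of 10 genes that mark hepatic stellate cells and pericytes was followed in mouse liver and lung, with and without acrylamide. The genes were Lrat, Reln, Rgs5, Ecm1, Colec11, Hand2, Pdgfrb, Pdgfra, Ngfr and Hgf, and they were found by their symbol among 26228 named genes on the array. They had 16 spots among 59305 spots that were no control: 3 each for Pdgfra and Hgf, 2 each for Reln and Ecm1, and 1 each for the other genes. Total RNA of female B6C3F1/Nctr mice was labelled with a single dye and measured on 12 one-colour Agilent arrays. There were 4 groups of 3 arrays: lung with acrylamide at 0.7 mM, lung without acrylamide, liver with acrylamide at 0.7 mM and liver without acrylamide. Acrylamide is a small reactive amide that the body oxidises to the epoxide glycidamide, and the series asked, under a title on epigenetic effects, what exposure to it does in mice. The sources used here give neither the route and length of exposure nor the age of the mice. They also do not state whether the 3 arrays of a group are separate animals, and the p-values therefore reflect only the spread among arrays, possibly a technical one.

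Stellate cells lie between the hepatocytes and the sinusoidal endothelium of the liver, where they store vitamin A as retinyl ester droplets. They are regarded as the pericytes of the sinusoid, and after injury they turn into collagen-producing myofibroblasts. Pericytes wrap capillaries elsewhere, lung included, and are recruited by platelet-derived growth factor B from the endothelium through its receptor Pdgfrb. In lung, Pdgfra is best known as a gene of alveolar fibroblasts.

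Each array is named by its tissue, treatment and title number. Values are log2 intensity relative to the array's own 75th percentile, so a value of 0 is a spot as bright as that percentile, and above background means brighter than the 95th percentile of 308 negative control spots of its array. The 75th percentile lay at 942.5 to 1547 intensity units on lung arrays and at 329.5 to 704.6 on liver arrays. The tissue entry of all 12 arrays reads liver, but titles and source names of 6 of them read lung. On those 6 arrays the 9 alveolar type 2 genes averaged 5.33 to 5.60 and the 12 hepatocyte genes -1.34 to -0.32. On the 6 liver arrays the 8 type 2 genes tested there averaged -2.65 to -0.89 and the hepatocyte genes 7.59 to 8.05. Liver acrylamide 30 stood apart, with a background limit of 16.8 intensity units against 2.35 to 4.45 on the other arrays and 33972 spots above it. Liver acrylamide 27 and 29 had signal from lung genes: Sftpc, the surfactant protein C of alveolar type 2 cells, was at 2.44 and -0.83 there and at -5.76 on liver acrylamide 30, against -7.62, -6.00 and -6.31 on liver control 1, 3 and 4, and at 8.06 to 8.63 on lung arrays. Lung arrays differed in signal from liver genes. The hepatocyte gene Alb was at 4.05, 3.94 and 2.88 on lung acrylamide 28, 29 and 30. It was at 2.95, 2.93 and 4.05 on lung control 4, 5 and 6. The part of that signal in the lung values was not tested. Titles begin with 19 on all liver arrays and with 18 on all lung arrays. That number was read here as the slide, and the digit after it, 1 or 2, as the slide row. The titles themselves name neither. On this reading each tissue had a slide of its own, and the effects of slide and tissue cannot be told apart. In whole tissue, fewer cells of a type cannot be told apart from less RNA per cell.

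A RefSeq promoter window of 300 bases on GRCm38.p6 was given for 9 of the 10 genes, with 2 windows for Hgf. Each ran from 250 bases before to 50 after a start position. For Pdgfra, Colec11, Ecm1 and the second Hgf window, that position lay inside the annotated gene, not at its outer end. Their CpG counts therefore describe those windows only. The windows differed widely in CpG dinucleotides, the sites of DNA methylation in mammals. Reln had 47, a count that 1.22% of 32851 mouse promoters exceeded. Ngfr had 23, Lrat 21 and Hand2 17, against a median of 7 over all promoters. The 2 Hgf windows had 7 and 6, Rgs5 6, Pdgfra 5, Colec11 3 and Ecm1 2. The following 4 are shown because they run from the highest of these counts to near the lowest and because their genes differed between the tissues by more than 3 log2 units in either direction. Each is printed from 5′ to 3′ on the gene's strand, with CpG dinucleotides in capitals. The windows are chr5:22344656-22344955 (minus strand) for Reln, chr11:95587649-95587948 (minus strand) for Ngfr, chr12:28623281-28623580 (minus strand) for Colec11 and chr5:75152001-75152300 (plus strand) for Pdgfra.
Reln: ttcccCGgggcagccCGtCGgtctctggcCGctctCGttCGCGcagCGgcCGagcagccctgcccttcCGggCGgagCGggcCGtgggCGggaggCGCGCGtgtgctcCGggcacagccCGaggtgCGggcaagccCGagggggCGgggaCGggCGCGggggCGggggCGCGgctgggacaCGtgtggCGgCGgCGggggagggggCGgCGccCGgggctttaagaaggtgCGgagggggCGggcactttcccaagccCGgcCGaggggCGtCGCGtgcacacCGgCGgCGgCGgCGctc
Ngfr: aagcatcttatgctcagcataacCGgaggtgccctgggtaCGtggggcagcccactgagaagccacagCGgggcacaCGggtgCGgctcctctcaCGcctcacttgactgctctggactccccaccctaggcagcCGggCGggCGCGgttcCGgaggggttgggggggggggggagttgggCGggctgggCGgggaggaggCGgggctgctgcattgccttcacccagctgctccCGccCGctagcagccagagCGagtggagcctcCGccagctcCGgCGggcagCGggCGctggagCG
Colec11: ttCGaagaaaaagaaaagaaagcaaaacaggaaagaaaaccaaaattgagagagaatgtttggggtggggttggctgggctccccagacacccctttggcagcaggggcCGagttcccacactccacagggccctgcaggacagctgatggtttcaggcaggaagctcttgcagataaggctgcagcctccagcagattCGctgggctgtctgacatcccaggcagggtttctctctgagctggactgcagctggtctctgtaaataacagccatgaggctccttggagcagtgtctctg
Pdgfra: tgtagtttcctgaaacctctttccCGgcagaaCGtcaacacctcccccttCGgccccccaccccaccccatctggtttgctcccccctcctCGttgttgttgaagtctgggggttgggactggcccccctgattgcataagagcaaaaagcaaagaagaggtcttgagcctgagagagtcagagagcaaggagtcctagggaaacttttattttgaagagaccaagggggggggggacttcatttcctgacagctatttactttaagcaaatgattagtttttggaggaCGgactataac

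The GC box GGGCGG, read on either strand, holds a CpG itself. It occurred 6 times in the Reln window, 4 times in that of Ngfr, 2 times each in those of Lrat and Hand2 and 1 time in that of Ecm1. None of the other windows had it, and 35.7% of all promoters did. The E-box CANNTG, which reads the same on both strands and is the motif bound by basic helix-loop-helix factors such as Hand2, was in 9 of the 10 windows and in 72.3% of all promoters. TATAAA, on either strand, was in the Ecm1 window and in 13.6% of all promoters. Reln and Colec11, both far lower in lung than in liver, had 47 and 3 CpG dinucleotides in their windows. More than the 3 of Colec11 were found in 68.6% of all promoters. A link between CpG count and tissue difference was not tested. A match of letters is not a bound site, and no methylation was measured on these arrays.

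Without acrylamide, 7 of the 10 genes were lower in lung than in liver and 2 were higher at adjusted p under 0.05. Colec11, Ngfr, Hand2, Reln, Rgs5, Ecm1 and Hgf were the lower ones, and Pdgfra and Pdgfrb the higher ones. Lrat did not pass. Such calls were common, since 16713 of 22441 genes (74.5%) passed, 32.2% of all genes as higher in lung and 42.3% as lower. The median difference over the 10 genes was -2.56 log2 units (lung minus liver), and over all genes -0.26. The median of all genes moved to 0.00 with quantile normalization and to -0.11 with median scaling, so a difference of that order depends on the scaling. The adjusted p-values are those of limma with Benjamini-Hochberg adjustment over all genes.

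Lrat makes the retinyl esters that stellate cells store, by joining retinol to a fatty acid of lecithin. It was at -0.16, -0.16 and 0.87 on lung control 4, 5 and 6, against 0.43, -0.77 and 0.25 on liver control 1, 3 and 4. The groups overlapped, and each held values more than 1 log2 unit apart. The difference was 0.21 ± 0.42 (lung minus liver, SE, n = 3 each; 95% interval -0.80 to 1.23, adjusted p = 0.661). It was -0.15 without liver control 3, -0.13 without lung control 6 and -0.05 with arrayWeights.

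Among the secreted proteins, Colec11, a collectin that binds sugars on microbes and starts the lectin pathway of complement, had the largest difference of the 10 genes. It was at -3.49, -3.44 and -2.12 on lung control 4, 5 and 6, against 3.28, 3.54 and 3.38 on liver control 1, 3 and 4. The groups lay far apart, and lung control 6 stood above the other 2 lung arrays. Colec11 was 85.6-fold lower in lung (-6.42 ± 0.38, SE, n = 3 each, adjusted p = 1.44e-05).

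Reln encodes reelin, a large glycoprotein that guides migrating neurons through the receptors Vldlr and Lrp8 and in liver marks stellate cells. It was at -1.41, -1.75 and -1.58 on lung control 4, 5 and 6, against 2.08, 2.12 and 2.2 on liver control 1, 3 and 4. Reln was 13.1-fold lower in lung (-3.71 ± 0.14, SE, adjusted p = 2.53e-06). Its dimmer spot had a difference of -3.02, in the same direction.

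Ecm1 encodes a matrix glycoprotein that hepatocytes also make and that keeps latent TGF-β inactive in liver. It was at 3.46, 3.37 and 3.49 on lung control 4, 5 and 6, against 5.11, 5.51 and 5.26 on liver control 1, 3 and 4. The groups did not overlap, and Ecm1 was 3.62-fold lower in lung (-1.86 ± 0.15, SE, adjusted p = 5.34e-05). Its dimmer spot differed by -0.69.

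Hgf, the hepatocyte growth factor, is made by stellate cells and acts on hepatocytes through Met. It was at -0.97, -1.20 and -1.18 on lung control 4, 5 and 6, against -0.61, 0.23 and -0.38 on liver control 1, 3 and 4. The groups did not overlap, though liver control 1 came near the lung arrays. Hgf was 1.82-fold lower in lung (-0.87 ± 0.24, SE, adjusted p = 0.0148), and its other 2 spots differed by -1.04 and -0.85.

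The receptors went in both directions. Pdgfra, the receptor of platelet-derived growth factor A, was at 2.44, 1.96 and 2.73 on lung control 4, 5 and 6, against -1.86, -1.66 and -1.78 on liver control 1, 3 and 4. Pdgfrb, which marks pericytes and stellate cells, was at 3.69, 2.92 and 3.17 on the same lung arrays, against 0.46, 0.90 and 0.51 on the same liver arrays. Every lung array exceeded every liver array for both genes. Pdgfra was 17.7-fold higher in lung (4.14 ± 0.22, SE, adjusted p = 8.80e-06) and Pdgfrb 6.22-fold higher (2.64 ± 0.24, SE, adjusted p = 9.76e-05). The spots of Pdgfra disagreed: a second spot differed by 5.08, but the remaining one, on another cDNA clone, by -0.41. Ngfr, the p75 receptor of the neurotrophins, was at -3.06, -3.80 and -4.08 on lung control 4, 5 and 6, against 1.02, 0.46 and 1.08 on liver control 1, 3 and 4. Ngfr was thus low where the PDGF receptors were high, 22.6-fold lower in lung than in liver (-4.50 ± 0.31, SE, adjusted p = 2.80e-05).

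Rgs5 shortens signals of G proteins and is a common pericyte marker. It was at -2.10, -2.31 and -2.47 on lung control 4, 5 and 6, against 1.14, 0.74 and 1.04 on liver control 1, 3 and 4, and so went against Pdgfrb. Rgs5 was 9.62-fold lower in lung (-3.27 ± 0.17, SE, adjusted p = 8.60e-06). Hand2, a basic helix-loop-helix transcription factor, was close to the background of lung arrays. It was at -7.73, -9.14 and -8.34 on lung control 4, 5 and 6, where 2 of 3 arrays were above background, against -4.66, -4.18 and -4.47 on liver control 1, 3 and 4, where all 3 were. It was 15.6-fold lower in lung (-3.97 ± 0.36, SE, adjusted p = 9.84e-05). As lung control 5 was not above background, that fold depends on how such dim spots are read.

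**Figure D1:**
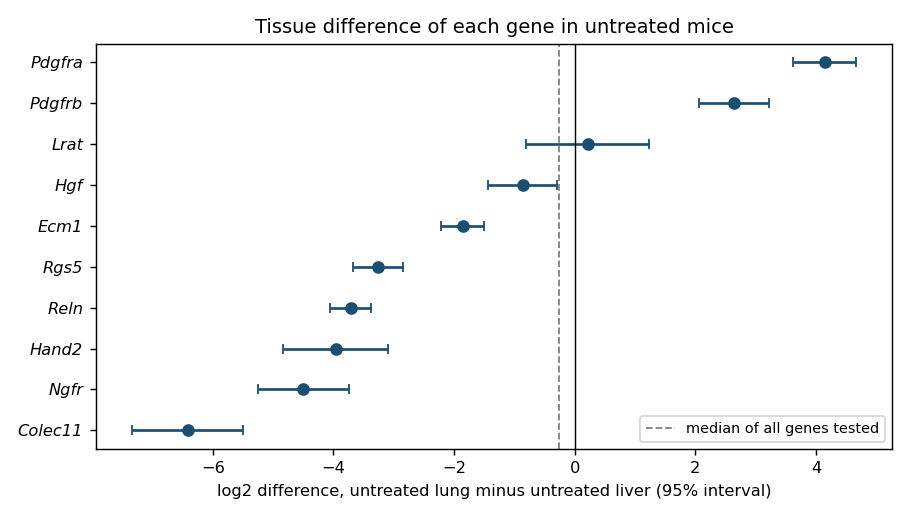
Difference of each gene between untreated lung and untreated liver, in log2 units (horizontal axis; points are limma estimates from 3 arrays per tissue, bars their 95% intervals, the dashed line the median of all genes tested). Pdgfra (4.14) and Pdgfrb (2.64) lie on the lung side, Lrat spans 0, and the other 7 genes lie on the liver side, down to Colec11 at -6.42.

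Other genes of the same cells and pathways were read from lists, whose counts are set beside the 32.2% of genes higher and 42.3% lower. Of 24 other stellate cell genes, 11 were higher and 10 lower in lung (median -0.05). The largest differences were those of Lhx2, a transcription factor that keeps stellate cells quiescent (-8.00 ± 0.34), Gdf2, which encodes BMP9 (-5.14 ± 0.51), Angptl6 (-4.39 ± 0.13) and the peptide receptor Vipr1 (-4.09 ± 0.29; SE, n = 3 each). Of 16 other pericyte genes tested, 9 were higher and 4 lower (median 1.0). Vtn, or vitronectin, which hepatocytes also secrete, was lower in lung (-8.03 ± 0.19), and Angpt1, the ligand of the endothelial receptor Tie2 (5.95 ± 0.14), the transcription factor Foxc1 (4.69 ± 0.29) and Higd1b (4.25 ± 0.15) were higher.

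The partners of the 2 PDGF receptors were mostly higher in lung too, 7 of 12 (median 0.92). The ligands Pdgfb (5.71 ± 0.15), Pdgfd (3.77 ± 0.40) and Pdgfa (3.76 ± 0.22) and the sphingosine kinase Sphk1 (5.10 ± 0.41) led them, and 1 gene, the ligand Pdgfc, was lower (-2.37 ± 0.14; named after its value was seen). Around Hgf, 6 of 10 genes were higher and 4 lower (median 1.28). The activating protease Hgfac (-7.39 ± 0.13) and plasminogen, Plg (-7.31 ± 0.32), were lower in lung, while the urokinase receptor Plaur (6.40 ± 0.15) and the protease inhibitor Spint1 (5.50 ± 0.39) were higher. The other lower genes, named after their values were seen, were the protease Hpn (-5.41 ± 0.14) and the receptor Met (-0.67 ± 0.13).

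Of 7 genes of reelin signalling, 6 were higher in lung and none lower (median 2.06), opposite to Reln itself. The kinase Src (3.36 ± 0.17) and the receptor Vldlr (2.47 ± 0.17) were among them. The receptor Lrp8 was above background on 0 of 3 untreated liver arrays, so its liver value is only a bound. It averaged -4.59 in untreated lung and -7.58 in untreated liver, and was at least 7.09-fold higher in lung when set against the dimmest spots above background on the liver arrays (limma adjusted p = 7.81e-06). Of 10 neurotrophin genes, 6 were higher. Among the higher ones were Ntf5 (6.36 ± 0.51, above background on 1 of 3 untreated liver arrays), Bdnf (3.01 ± 0.19) and the sorting receptor Sort1 (2.55 ± 0.21), while Lingo1 was lower (-2.31 ± 0.18; named after its value was seen). The collectins and their proteases went with Colec11: 7 of 8 were lower in lung and none higher (median -6.62), with Mbl2 at -10.84 ± 0.26, Masp2 at -9.01 ± 0.14, Mbl1 at -8.62 ± 0.21 and Colec10, which pairs with Colec11, at -6.64 ± 0.22. Of 28 genes of retinoid handling, 17 were lower and 6 higher (median -1.30), the retinol dehydrogenase Rdh16 (-10.95 ± 0.30), the carrier Ttr (-10.86 ± 0.36), the receptor Stra6l (-7.63 ± 0.18) and the retinoic acid hydroxylase Cyp26a1 (-7.14 ± 0.81) differing most. Of 16 myofibroblast genes, 13 were higher in lung and 2 lower (median 2.38), with Thbs1 at 6.63 ± 0.49, Cnn1 at 5.45 ± 0.84, Lox at 5.35 ± 0.41 and Acta2 at 3.94 ± 0.54, and with Fn1 (-3.08 ± 0.17) and Timp1 (-1.12 ± 0.24) as the lower ones (named after their values were seen).

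**Figure D2:**
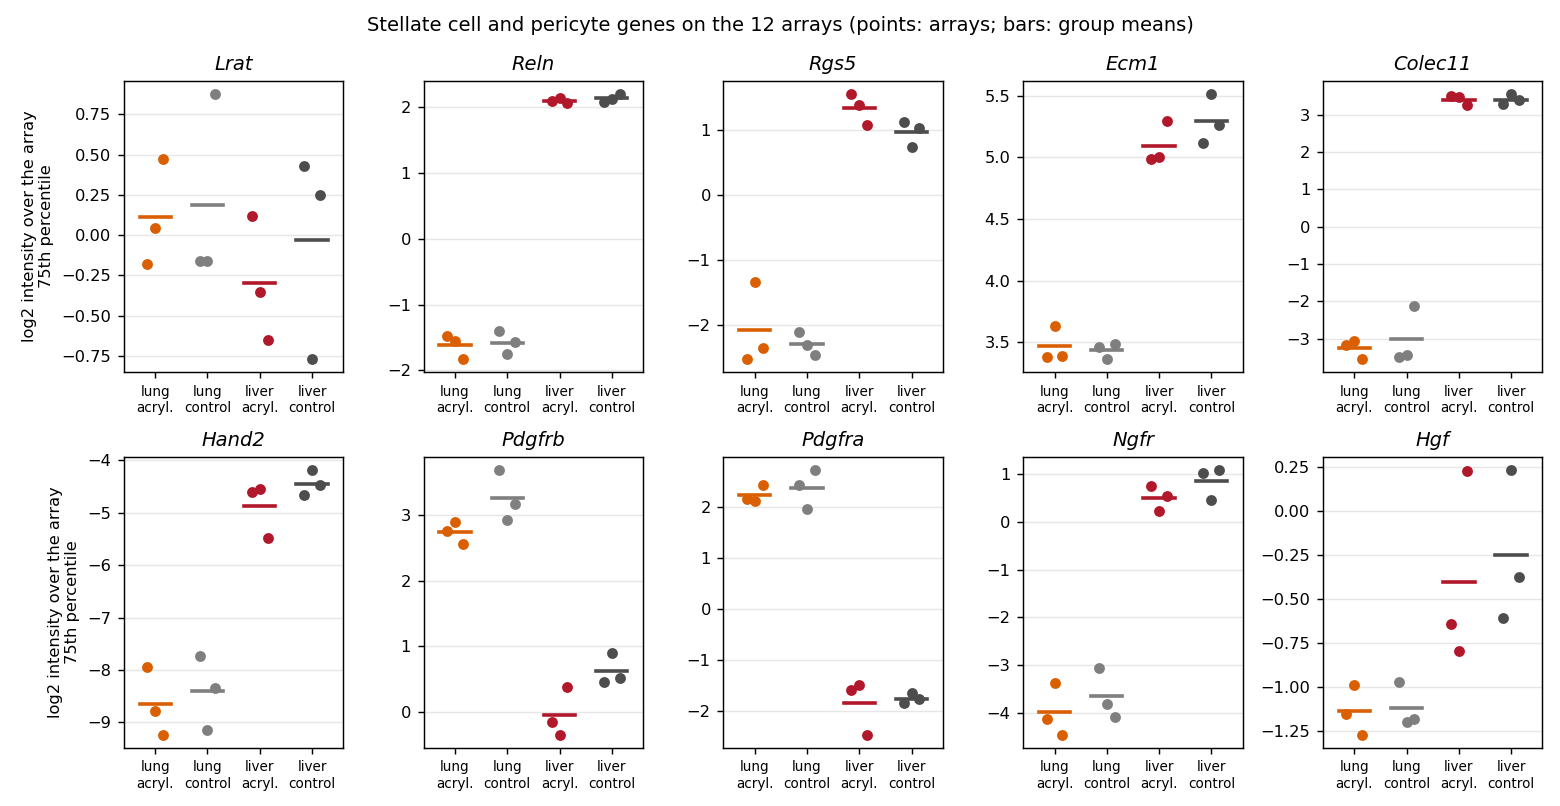
Log2 intensity relative to the array's 75th percentile for each of the 10 genes (vertical axes differ between panels), with 1 point per array and a bar at the mean of each group of 3. Within a tissue the acrylamide and control points of most genes intermingle, while for 9 genes the untreated lung points lie apart from the untreated liver points.

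In liver, none of the 10 genes passed the test with acrylamide. No gene of 21169 passed at adjusted p under 0.05 (0%), while 1287 had an unadjusted p under 0.05 and 782 of those (3.69%) also a difference of at least 1.5-fold. Pdgfrb was the only one of the 10 genes in that last group. The estimated difference was below 0 for 9 of the 10 genes, with a median of -0.18 log2 units (acrylamide minus control), where 52.9% of all genes were below 0 and their median was -0.02. Counts of 7 to 9 of 10 were found when each array was left out in turn (7 without liver acrylamide 30 or liver control 3), and 6 of 10 when a gene's spots were averaged.

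Pdgfrb was at -0.16, -0.35 and 0.38 on liver acrylamide 27, 29 and 30, against 0.46, 0.90 and 0.51 on liver control 1, 3 and 4. All acrylamide arrays lay below all control arrays, liver acrylamide 30 by little. Groups that did not overlap with acrylamide lower were found for 6.68% of genes, and with acrylamide higher for 5.69%. The difference was -0.66 ± 0.24 (acrylamide minus control, SE, n = 3 each; 95% interval -1.25 to -0.08; limma unadjusted p = 0.0316, adjusted p = 0.782). It was -0.87 without liver acrylamide 30 (adjusted p = 0.179), and -0.57 within slide row 1 and -0.86 within slide row 2. Row 2 held only liver acrylamide 29 and liver control 4, so its value is a difference between single arrays. Over the alternatives tried, the adjusted p of Pdgfrb ran from 0.136 to 0.999.

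Rgs5 was the one gene with a difference above 0. It was at 1.56, 1.4 and 1.08 on liver acrylamide 27, 29 and 30, against 1.14, 0.74 and 1.04 on liver control 1, 3 and 4. The groups overlapped through liver acrylamide 30 and liver control 1. The difference was 0.37 ± 0.19 (SE; 95% interval -0.09 to 0.84, adjusted p = 0.782), and 0.50 without liver acrylamide 30.

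The other receptors did not separate the groups. Ngfr was at 0.75, 0.22 and 0.54 on liver acrylamide 27, 29 and 30 (-0.35 ± 0.23, 95% interval -0.92 to 0.22), inside the control range of 0.46 to 1.08 on 2 of 3 arrays. Pdgfra was at -1.59, -1.49 and -2.47 on those arrays (-0.09 ± 0.28, 95% interval -0.77 to 0.60), and without liver acrylamide 30 its difference was 0.22. The 2 arrays with the higher Pdgfra were those with lung signal (Sftpc at 2.44 and -0.83), and the part of that signal was not tested.

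Hand2 was at -4.60, -4.54 and -5.48 on liver acrylamide 27, 29 and 30, and was not above background on the last of these. Its difference was -0.43 ± 0.29 (95% interval -1.15 to 0.28), and -0.13 without liver acrylamide 30. Lrat was at 0.12, -0.35 and -0.65 on those arrays (-0.27 ± 0.37, 95% interval -1.17 to 0.64), and all 3 lay within the control range of -0.77 to 0.43. For both genes the interval includes a change of more than 2-fold downward.

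None of the secreted proteins separated the groups by the brightest spot, which was the one fitted. Reln was at 2.10, 2.15 and 2.06 (-0.03 ± 0.12, 95% interval -0.33 to 0.27), Colec11 at 3.49, 3.46 and 3.26 (-0.0011 ± 0.15, 95% interval -0.36 to 0.35), Ecm1 at 4.99, 5.0 and 5.3 (-0.20 ± 0.17, 95% interval -0.62 to 0.22) and Hgf at -0.64, -0.80 and 0.23 (-0.15 ± 0.35, 95% interval -1.0 to 0.69) on liver acrylamide 27, 29 and 30. Their control values are those given above, and each overlapped the acrylamide values. The dimmer spots of Reln and Ecm1 had differences of 0.45 and 0.39, opposite in sign to the brighter ones. That of Ecm1 separated the groups. It was at -2.20, -2.17 and -2.15 on liver acrylamide 27, 29 and 30, against -2.71, -2.54 and -2.46 on liver control 1, 3 and 4. By the fitted spot, groups not overlapping with acrylamide higher were found for 5.69% of genes. The dimmer Reln spot overlapped between the groups.

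**Figure D3:**
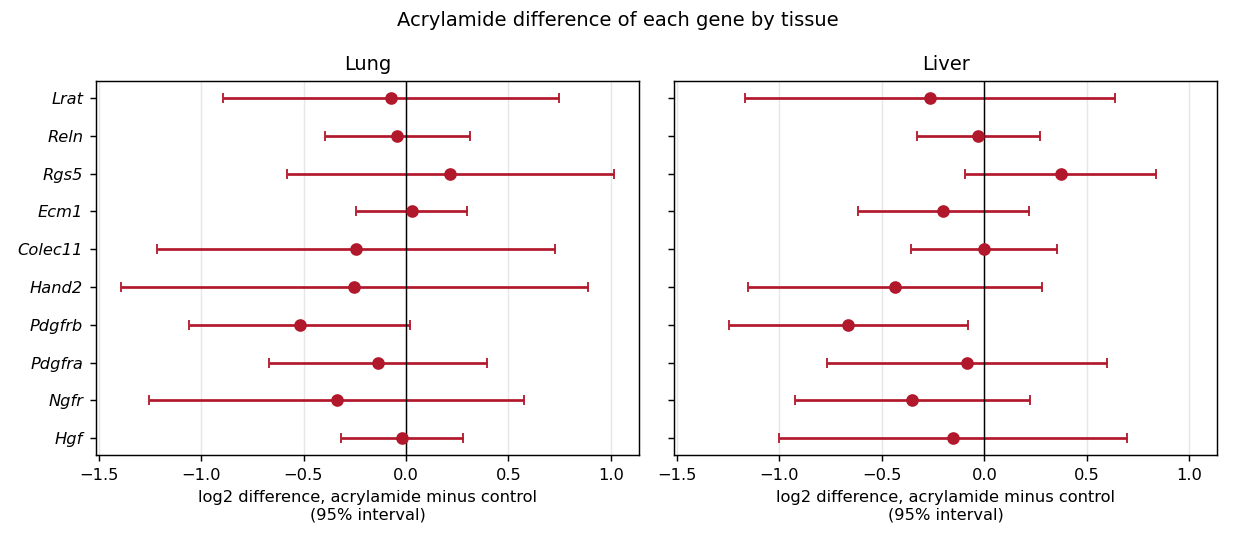
Difference between acrylamide and control for each gene, in log2 units (horizontal axis), in lung on the left and liver on the right; points are limma estimates from 3 arrays per group and bars their 95% intervals. Pdgfrb has the lowest estimate in both tissues, -0.52 in lung and -0.66 in liver, and only its liver interval leaves out 0 before adjustment.

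In lung, none of the 10 genes passed either. No gene of 22252 passed at adjusted p under 0.05 (0%), while 1098 had an unadjusted p under 0.05 and 355 of those (1.6%) also a difference of at least 1.5-fold, none of the 10 among them. The estimated difference was below 0 for 8 of the 10 genes (median -0.10), where 51.6% of all genes were below 0 and their median was -0.01. That count was not stable: it ran from 5 to 10 of 10 when each array was left out in turn, 10 without lung acrylamide 29 and 5 without lung acrylamide 30, lung control 4 or lung control 6, and it was 4 of 10 with arrayWeights.

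Pdgfrb had the largest difference in lung as well. It was at 2.76, 2.90 and 2.56 on lung acrylamide 28, 29 and 30, against 3.69, 2.92 and 3.17 on lung control 4, 5 and 6. The groups did not overlap, but lung control 5 and lung acrylamide 29 nearly met. Groups not overlapping with acrylamide lower were found for 6.76% of genes, and with acrylamide higher for 4.16%. The difference was -0.52 ± 0.22 (SE, n = 3 each; 95% interval -1.06 to 0.02; limma unadjusted p = 0.0564, adjusted p = 0.998). It was -0.30 without lung control 4, and -0.26 within slide row 1 and -0.53 within slide row 2.

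Rgs5 was at -2.52, -1.34 and -2.36 on lung acrylamide 28, 29 and 30, with only lung acrylamide 29 above all controls. Its difference of 0.22 ± 0.33 (95% interval -0.58 to 1.02) was -0.15 without that array. Ngfr was at -4.13, -3.37 and -4.45 (-0.34 ± 0.37, 95% interval -1.25 to 0.58), and its difference was -0.04 without lung control 4. Neither gene separated the groups.

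The remaining genes had wide or small differences in lung. Colec11 was at -3.17, -3.07 and -3.54 on lung acrylamide 28, 29 and 30 (-0.24 ± 0.40, 95% interval -1.22 to 0.73), and 0.21 without lung control 6. Hand2 was at -7.95, -8.79 and -9.24, not above background on the last (-0.25 ± 0.46, 95% interval -1.39 to 0.89). Lrat, at -0.18, 0.04 and 0.47, had a difference of -0.07 ± 0.33 (95% interval -0.89 to 0.75), and Pdgfra, at 2.17, 2.12 and 2.43, of -0.14 ± 0.22 (95% interval -0.67 to 0.40). All 4 genes overlapped between the groups.

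Reln, Ecm1 and Hgf were the tightest in lung. Reln was at -1.48, -1.56 and -1.82 (-0.04 ± 0.14, 95% interval -0.39 to 0.31), Ecm1 at 3.38, 3.64 and 3.39 (0.03 ± 0.11, 95% interval -0.24 to 0.30, and -0.01 with median scaling) and Hgf at -1.15, -0.99 and -1.27 (-0.02 ± 0.12, 95% interval -0.32 to 0.28) on lung acrylamide 28, 29 and 30. These were the narrowest intervals of the 10 genes in lung.

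The difference between the tissues in the response was tested over all 12 arrays, and no gene of 23300 passed (0%; 1036 at an unadjusted p under 0.05). For Pdgfrb it was 0.15 ± 0.34 (lung minus liver, SE; 95% interval -0.62 to 0.91), and for Rgs5 -0.15 ± 0.40 (95% interval -1.05 to 0.74). Over the 10 genes it ran from -0.24 to 0.23, with adjusted p of 0.992 or more. The liver controls enter both the liver response and the tissue comparison, as the lung controls do the lung response, so those comparisons share arrays.

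The genes differed in how much they varied among replicates. In liver the pooled SD within groups was 0.05 for Reln, smaller than in all but 0.787% of 15888 genes above background on all arrays, and 0.13 for Colec11. It was 0.53 for Lrat and 0.50 for Hgf, larger than in 91.6% and 90.1% of genes, where the median gene had 0.22. In lung the order changed: the SD was 0.58 for Colec11 and 0.54 for Ngfr, larger than in 97.0% and 96.4% of genes, and 0.11 for Ecm1 and 0.13 for Hgf, where the median gene had 0.15. Lrat was variable in both tissues, with an SD of 0.48 in lung.

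Similarity of pattern over the 12 arrays was measured as the root mean square difference between values centred on each gene's mean, among 13845 of the 15888 genes above background on all arrays, which leaves out the 10 genes themselves and provisional symbols such as those of Rik clones. It reflects mostly the tissue difference and, since all genes share the 12 arrays, is a description only. Nearest to Colec11 were Acmsd (0.25), its partner Colec10 (0.26) and the bile canalicular transporter Abcb4 (0.27), in log2 units. Among the nearest to Reln were Sirt3 and Ccs (0.14 each). Nearest to Ngfr were the hepatic receptor Nr1i3 (0.33), Bco2 (0.34) and Itih4 (0.35), and to Rgs5 Clybl (0.24), the macrophage receptor Timd4 (0.24) and Fads1 (0.27). Nearest to Pdgfrb were the endothelial receptor Flt1 (0.18), Macf1 and Rps6ka3 (0.20 each), and to Pdgfra Slc16a9 (0.18), Tspan18 and Pfkp (0.21 each). Nearest to Ecm1 were Ndufb8, Chchd3 and Evi5 (0.09 each), to Hgf Sprr1a (0.12), D7Ertd183e (0.14) and Knop1 (0.15), and to Lrat Slc28a2 (0.27), Cd38 (0.30) and Snord7 (0.31). Among the genes themselves, Reln and Rgs5 were the closest pair (0.39), followed by Ecm1 and Hgf (0.51), whereas Pdgfra and Pdgfrb were 0.86 apart.

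The lists of related genes in liver had no member that passed with acrylamide. Of 24 other stellate cell genes, 18 were below 0 (median -0.17), Cygb (-0.68 ± 0.20) and Adamtsl2 (-0.49 ± 0.17) among the lowest and Steap4 (0.57 ± 0.31) highest (SE, n = 3 each). Of 16 other pericyte genes, 11 were below 0 (median -0.09), with Foxc1 at -1.28 ± 0.48, Heyl, a Notch target, at -0.88 ± 0.14, Tbx18 at 0.98 ± 1.15 and Mcam at 0.63 ± 0.30. Foxc1 was not above background on liver acrylamide 29 and 30, nor was Tbx18 on liver acrylamide 30. Without liver acrylamide 27, 8 of 16 pericyte genes were below 0 and their median was 0.00. The genes of activated myofibroblasts lay lower, 15 of 16 below 0 with a median of -0.51.

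Col1a1, the α1 chain of type I collagen, was at -1.51, -0.87 and -0.79 on liver acrylamide 27, 29 and 30, against 0.54, 0.94 and -0.56 on liver control 1, 3 and 4. The groups did not overlap, liver control 4 lying nearest, and the difference was -1.36 ± 0.42 (SE, adjusted p = 0.782). Lox, which cross-links collagen, had a difference of -1.28 ± 0.40, and the contractile genes Cnn1 and Acta2 had -1.61 ± 0.997 and -0.94 ± 0.69. Lox averaged -4.14 on untreated liver arrays, close to the -4.30 background limit of liver acrylamide 30. Its difference therefore depends on how dim spots are read there. The myofibroblast median was -0.65 to -0.46 when each array was left out, and 14 or 15 of 16 genes were below 0.

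Of 11 portal fibroblast genes, 10 were below 0 (median -0.45). Gli1 was at -0.95 ± 0.30, though not above background on liver acrylamide 30. Msln, also in the mesothelial list, was at -0.87 ± 0.48, Fbln1 at -0.85 ± 0.30 and Cd34 at -0.68 ± 0.24. Of 8 smooth muscle genes tested, 7 were below 0 (median -0.34), 3 of them also in the myofibroblast list. Markers of other cell types lay low as well. Of 6 mesothelial genes tested, 5 were below 0 (median -0.71), with Wt1 at -2.17 ± 0.59 and Krt19 at -1.21 ± 1.04. Wt1 averaged -2.69 on untreated liver arrays, and the background limit of liver acrylamide 30 was -4.30. The mesothelial median was -0.34 without liver acrylamide 30, -0.37 without liver control 4 and -1.14 without liver acrylamide 29. Of 7 Schwann cell and glial genes, 5 were below 0 (median -0.40, and -0.22 without liver acrylamide 30), and of 7 striated muscle genes, 6 were (median -0.38, and -0.03 without liver acrylamide 27). The part of these cell types in the fibroblast and myofibroblast values was not tested. On the other side, 9 of 9 macrophage genes were above 0 (median 0.46), with Lyz2 at 1.13 ± 0.49, Vsig4 at 0.80 ± 0.33 and Adgre1 at 0.69 ± 0.22, as were 8 of 9 sinusoidal endothelial genes (median 0.17), with Clec4g at 0.43 ± 0.16 and Fcgr2b at 0.41 ± 0.33. The alveolar type 2 genes lay 1.62, 1.08 and 0.23 above their control mean on liver acrylamide 27, 29 and 30, and their part in these list values was not tested.

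In lung no member of the lists passed the test. The list medians were nearer to 0 than in liver, except those of the other pericyte, collectin and hepatocyte genes. The collectin median was 0.20 in lung and 0.08 in liver, and the hepatocyte median 0.34 in lung and -0.12 in liver. The other stellate cell genes had a median of 0.05, 15 of 24 above 0, with Gdf2 at -0.67 and Nes at 0.50. The other pericyte genes had a median of -0.13, 13 of 17 below 0, with Kcnj8 at 0.51, Foxc1 and Foxd1 at -0.48 each and Tbx18 at -0.47. Foxd1 was not above background on lung acrylamide 28 and 30 or on lung control 6. The myofibroblast median was 0.0033, 8 of 16 genes on either side. The medians were 0.02 for portal fibroblast, 0.07 for smooth muscle, 0.10 for sinusoidal endothelial and 0.26 for macrophage genes. The mesothelial median was -0.13 and the Schwann cell and glial one -0.09. The difference between the tissues was tested only gene by gene, and none passed.

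**Figure D4:**
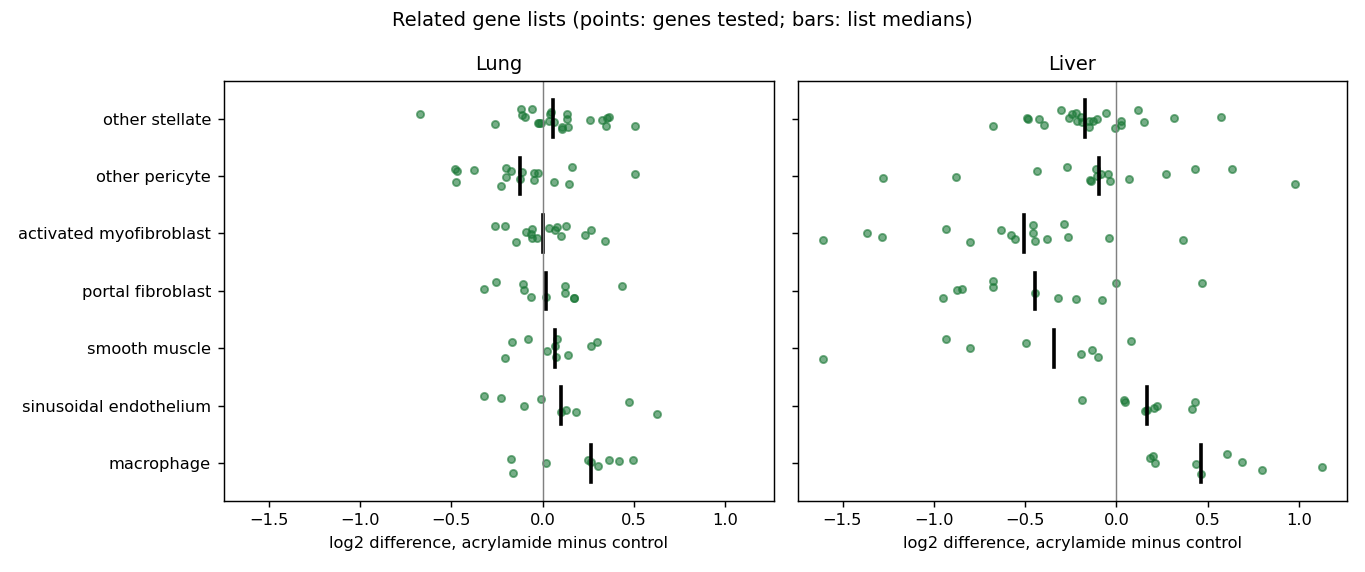
Acrylamide minus control difference of the genes of 7 lists, in log2 units (horizontal axis), in lung on the left and liver on the right; points are single genes tested, bars the list medians. In lung the 7 medians lie between -0.13 and 0.26, while in liver the myofibroblast and portal fibroblast medians lie at -0.51 and -0.45 and the macrophage median at 0.46.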

How the data were processed

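Each deposited array file gives a linear Cy3 intensity per spot. Per the submitters' processing notes, the images were read with Agilent Feature Extraction 10.7; whether background was subtracted is not stated in the sources used here. In the authors' deposited series matrix the same intensity is multiplied by 1 factor per array bringing the 75th percentile to 1000, which served as an alternative. Of 62976 spots, 1319 named controls and 2352 spots of spike-in accessions were left out. Symbols were taken through Entrez numbers (38054 spots) or accessions (715 spots) in a RefSeq table of GRCm38.p6, and otherwise from the file (2242 spots). Promoter sequences are from RefSeq, GRCm38.p6.

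Each array's 75th percentile was subtracted on the log2 scale. A fit took spots that exceeded background on 3 or more of its arrays, and each gene by its spot with the highest mean, which for all 10 genes was the same spot throughout. Differences were fitted with limma 3.58.1 in R 4.3.3 (lmFit and eBayes, Benjamini-Hochberg over all genes), within each tissue for acrylamide, between the control groups for tissue, and over all 12 arrays for the difference in response. The fit was tested on simulated data with known changes. For acrylamide in liver, 4% of 1.5-fold and 22% of 2-fold changes were called at adjusted p under 0.05. In lung, 10% and 54% were. Changes of that size can therefore be missed. The alternatives were other scalings, filters and spot rules, arrayWeights, the slide row as a block and within rows, the title number as a block, a joint fit of all arrays, and leaving out each array. The list medians and counts by setting were added after seeing the data. The genes and lists were chosen with earlier results of these data known. All 10 genes are named, with the 2 to 4 largest differences of each list described and the 3 nearest patterns of each gene; exceptions are marked, and a few genes that the rule names are not reported here. The number of arrays limits the precision.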

Additional observations from a re-analysis of the deposited data

Results flagged for a closer look

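For 3 of 214 genes of the lists tested in both tissues (1.4%), every acrylamide array lay on one side of the controls in lung and on the opposite side in liver. Over all genes tested in both tissues, 94 of 20415 (0.46%) did so. Gli1, a transcription factor of hedgehog signalling in the portal fibroblast list, differed by 0.44 in lung and by -0.95 in liver (log2, acrylamide minus control). It averaged -5.45 on untreated liver arrays and was lower with acrylamide. The background limit of liver acrylamide 30 was -4.30, so Gli1 was not above background there, and its liver difference rests partly on that array. Mmp2, a gelatinase in the myofibroblast list, differed by 0.34 in lung and by -0.44 in liver. Notch3, a receptor of mural cells in the pericyte list, differed by -0.38 in lung and by 0.43 in liver. The difference between the tissues was 1.39 ± 0.35 for Gli1, 0.79 ± 0.25 for Mmp2 and -0.81 ± 0.24 for Notch3 (lung minus liver, SE), and none passed limma's test over all genes (adjusted p = 0.872, 0.992 and 0.992). Groups of 3 arrays were too small for a test of single outlying arrays.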

How the results depend on the processing

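The 9 tissue calls kept their direction and side of the threshold under all alternatives, except that Hand2 was not tested where every array had to be above background. None of the 10 genes was called for acrylamide under any alternative. Where a value changed below, the cause was not tested. With 1 fit of all 12 arrays, 2 genes passed in liver, and 229 in lung and 1185 in liver passed at an unadjusted p under 0.05 with 1.5-fold. That count in liver was 453 with every array above background, 2080 with arrayWeights and 710 to 1901 when each array was left out (1901 without liver acrylamide 30), and in lung 389 to 575. In liver it split into 361 higher and 421 lower genes, or 249 and 513 with quantile normalization. Leaving out an array gave 0 to 1 calls in liver and 0 to 138 in the difference of responses (138 without liver acrylamide 30), where arrayWeights gave 139.

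Small differences changed sign. With arrayWeights, the lung values were 0.037 for Lrat, 0.027 for Reln, 0.0048 for Pdgfra and 0.037 for Hgf, the liver values 0.078 for Colec11 and 0.21 for Pdgfra, and the tissue difference of Lrat -0.048. With the mean of a gene's spots, the lung values were 0.081 for Reln, 0.017 for Pdgfra and 0.037 for Hgf, and the liver values 0.21 for Reln, 0.095 for Ecm1 and 0.067 for Pdgfra. Median scaling gave -0.010 for Ecm1, -0.035 for the myofibroblast and -0.021 for the portal fibroblast median in lung, quantile normalization -0.0042 for the myofibroblast median, and the series matrix 0.0050 for Colec11 in liver. With the slide row as a block, lung Reln was 0.018, lung Hgf 0.039 and the tissue difference in the response of Rgs5 0.032. Within row 1 of the lung slide, values were 0.31 for Lrat, 0.10 for Reln, -0.13 for Rgs5, 0.084 for Colec11, 0.55 for Hand2 and 0.34 for Pdgfra. Within row 2, they were 0.20 for Ngfr and 0.088 for Hgf in lung and 0.077 for Colec11 and 0.29 for Pdgfra in liver. These values rest on a single control array in lung row 1 and a single acrylamide array in lung row 2. In liver row 2 each group had a single array.

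When each array was left out, lung values ran from -0.25 to 0.27 for Lrat, -0.13 to 0.059 for Reln, -0.15 to 0.44 for Rgs5, -0.056 to 0.073 for Ecm1, -0.48 to 0.21 for Colec11, -0.62 to 0.085 for Hand2, -0.35 to 0.040 for Pdgfra and -0.093 to 0.053 for Hgf. Liver values ran from -0.057 to 0.0016 for Reln, -0.060 to 0.072 for Colec11, -0.27 to 0.22 for Pdgfra and -0.47 to 0.088 for Hgf. The tissue difference of Lrat ran from -0.15 to 0.44, and the differences in response from -0.024 to 0.36 for Pdgfrb and -0.52 to 0.070 for Rgs5. List medians ran from -0.074 to 0.12 (myofibroblast), -0.12 to 0.089 (portal fibroblast), -0.091 to 0.35 (smooth muscle) and -0.10 to 0.22 (sinusoidal endothelium) in lung and from -0.14 to 0.00010 (pericyte) in liver.

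The title numbers 29, 30 and 4 occur in both tissues. Deviations of arrays with the same number correlated at -0.02, -0.25 and -0.06 over 15888 genes. Deviations from different tissues cannot show whether such arrays share an animal, and the labels do not state it. The numbers were not taken as pairs. With the number as a replicate block, 16868 genes were called between the tissues and 0 in the difference of responses. Acrylamide and control arrays of a tissue share no number. Intensities near background, as for Hand2, limit the dimmest values.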
